A study of Mus musculus with 6 samples.

Results

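The comparison described here is that of Rnf8 knockout (KO) with wild-type (WT) pachytene spermatocytes, the meiotic prophase cells of the mouse testis. It rests on the 2 KO and the 2 WT pachytene arrays among the 6 arrays analysed, and on 17925 of the 19938 genes that single-gene transcript clusters of the Affymetrix MoGene 1.0 ST array name. A gene entered where its log2 intensity reached 6 on at least 1 array, and a gene with several clusters was represented by the one of highest mean. Both genotypes had a C57BL/6 background. Pachytene spermatocytes and round spermatids, the haploid products of meiosis, had been purified from 3 to 4 WT or KO males by gravity sedimentation in albumin, with a stated enrichment above 95%. One WT and one KO round spermatid array were used beside the pachytene arrays. No label gives the age of the males, says how the Rnf8 allele was made, or says that arrays of a genotype came from separate animals, so p-values reflect nothing but array-to-array spread, which may be technical. Arrays are called WT array 1 and 2 and KO array 1 and 2 by the numbers in their titles, and values are log2 intensities unless stated otherwise. In RNA from purified cells, fewer cells of a type and less RNA per cell cannot be told apart.

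RNF8 is a ubiquitin ligase that is recruited to DNA breaks and there marks H2A-type histones, which brings further repair proteins to the site. In pachytene spermatocytes of males the unpaired X and Y chromosomes form the sex body, where DNA damage response proteins including RNF8 gather and transcription of both chromosomes is silenced. Part of the X- and Y-linked genes are transcribed again in round spermatids, and RNF8 is known for its role in the activation of such genes. The comparison asks which transcripts differ in pachytene preparations that lack the enzyme.

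The array has 1 cluster for the deleted gene, which is shared in the annotation with the readthrough gene Gm28043 and therefore took no part in the fits. Its level was 8.51 and 8.86 on the WT arrays and 7.86 and 8.05 on the KO arrays. The genotypes did not overlap, with KO lower by 0.74 (8.69 ± 0.25 against 7.95 ± 0.13, SD, n = 2 arrays each), or 1.67-fold. The KO level was still above the log2 6 used as a filter, and the sources used here do not say which exons the allele removes. A second cluster, which lists Gm28043 together with the neighbouring gene Cmtr1, was at 10.57 ± 0.26 in WT and 10.54 ± 0.09 in KO (SD, n = 2 arrays each).

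All 4 pachytene arrays carried high levels of meiotic markers. Sycp3, a synaptonemal complex protein, lay between 11.91 and 12.32, the chaperone Hspa2 between 12.82 and 12.93, the piRNA-binding protein Piwil1 between 12.81 and 12.91, and the lactate dehydrogenase Ldhc between 13.36 and 13.48. Hspa2 and Ldhc do not mark the stage, since the WT round spermatid array had them at 12.75 and 13.43, beside 11.02 for Sycp3 and 10.74 for Piwil1. The summed linear intensity of all 15 pachytene markers was 77176 and 76147 on the WT arrays and 80544 and 73998 on the KO arrays. Among these markers H1f6 was lower in KO and is given below. RNA of later and of somatic cells was also measured. Prm1, a spermatid protamine, was at 12.85 to 13.18 on the pachytene arrays and 13.20 to 13.23 on the round spermatid arrays, and Tnp1, a spermatid transition protein, at 10.71 to 11.36 against 12.13 to 12.36. Cyp17a1, a steroid-synthesis enzyme of Leydig cells, was at 11.26 to 11.92 on the pachytene arrays. The summed linear intensity of 11 Leydig markers was 9729 and 10302 on the WT arrays and 7930 and 10627 on the KO arrays, that of 24 Sertoli markers 15405 and 13516 against 16251 and 15654. That of 26 spermatogonia markers was 9455 and 10040 against 10272 and 10520. For 20 peritubular and vessel markers the sums were 6706 and 5869 against 6150 and 7353, and for 17 macrophage and blood markers 2718 and 2666 against 2980 and 2891. The sums overlapped for Leydig, peritubular and vessel markers, and the KO sums were the higher for spermatogonia, Sertoli, and macrophage and blood markers. A sum gives most weight to its brightest members. By member, 23 of 26 spermatogonia, 18 of 24 Sertoli and 10 of 17 macrophage and blood markers were above WT, beside 59.9% of all tested genes. The macrophage and blood markers had a median difference of 0.05, beside 0.03 for all tested genes.

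No gene passed an adjusted p of 0.05 in limma with Benjamini-Hochberg adjustment, that is 0 of 17925 tested (0%), and the smallest adjusted p was 0.414, shared by 11 genes. At an unadjusted p under 0.05, 430 genes (2.4%) were apart, 181 of them higher (1.01%) and 249 lower (1.39%) in KO. On data simulated with each gene's fitted spread, taken as equal in both genotypes, 200 genes changed by 2 on the log2 scale gave 154 calls. Changes of 1 gave 0. Leaving out WT array 1 gave 2 genes past the adjusted threshold, Cpn1 and A530064D06Rik. A plain count by size found 25 genes (0.139%) at least 2-fold apart whose KO and WT arrays did not overlap, 7 higher (0.0391%) and 18 lower (0.1%). That count of lower genes was 87 without KO array 1 and 40 without WT array 1, and the count of higher genes was 26 without KO array 2. With 1 array in an arm the condition of no overlap is easier to meet, so these counts do not compare directly with 18 and 7.

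Of the 18 genes at least 2-fold lower, 8 lie on the X chromosome, which held 624 of the tested genes, and 1 on the Y chromosome, which held 9. The 8 X-linked genes were Ppp4r3c-ps, 4933400A11Rik, 4921511C20Rik, Gm614, Samt3, H2ab1, Gm732 and 4930595M18Rik, and the Y-linked gene was Srsy. Chromosome 17, which carries Rnf8, held 4 of the lower genes. None of the 7 higher genes was sex-linked. The promoter windows of 3 of the sex-linked genes, and of Zfp943 from an autosomal gene pair among the lower genes, are printed because these members turn up together below. They are RefSeq windows of 250 bases before to 50 bases after the gene start, with each CG dinucleotide in capitals.

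Samt3 (GRCm38.p6, chrX:86043949-86044248, plus strand): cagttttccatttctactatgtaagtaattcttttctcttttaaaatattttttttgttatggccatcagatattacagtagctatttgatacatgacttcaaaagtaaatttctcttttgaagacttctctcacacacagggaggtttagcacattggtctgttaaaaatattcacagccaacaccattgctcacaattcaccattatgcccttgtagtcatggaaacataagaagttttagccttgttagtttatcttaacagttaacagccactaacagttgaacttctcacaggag
H2ab1 (GRCm38.p6, chrX:117014507-117014806, plus strand): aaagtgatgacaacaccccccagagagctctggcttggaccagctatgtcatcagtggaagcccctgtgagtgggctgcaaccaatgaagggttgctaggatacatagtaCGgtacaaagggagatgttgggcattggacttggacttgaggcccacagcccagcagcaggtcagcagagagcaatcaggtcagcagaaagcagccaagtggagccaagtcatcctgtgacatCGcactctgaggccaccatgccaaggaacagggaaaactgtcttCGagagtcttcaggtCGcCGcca
Srsy (GRCm38.p6, chrY:17937281-17937580, minus strand): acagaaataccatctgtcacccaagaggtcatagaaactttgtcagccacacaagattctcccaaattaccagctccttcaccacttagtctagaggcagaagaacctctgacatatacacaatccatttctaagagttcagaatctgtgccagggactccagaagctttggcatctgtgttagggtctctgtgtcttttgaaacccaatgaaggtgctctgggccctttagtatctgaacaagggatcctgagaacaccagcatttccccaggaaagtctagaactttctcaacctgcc
Zfp943 (GRCm38.p6, chr17:21962309-21962608, plus strand): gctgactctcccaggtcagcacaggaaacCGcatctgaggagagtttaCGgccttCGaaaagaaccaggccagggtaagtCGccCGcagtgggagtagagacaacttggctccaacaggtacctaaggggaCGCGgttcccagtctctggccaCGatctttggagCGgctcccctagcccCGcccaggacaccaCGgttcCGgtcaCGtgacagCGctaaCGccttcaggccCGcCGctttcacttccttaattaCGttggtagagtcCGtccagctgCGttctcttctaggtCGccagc

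The Samt3 and Srsy windows hold 0 CG dinucleotides, which 5.4% of the 32851 windows of the RefSeq table share, and that of H2ab1 holds 5, where the median window holds 7. Srsy is multicopy, and the single window printed may not stand for all the copies that the array measures. The Zfp943 window holds 21, above the upper quartile of 20, and 194 of its bases are also in the window of Zfp942, which runs the opposite way. Of the 18 lower genes, 12 had a window in the table. CG counts are given here only for the printed windows, so they do not describe the lower genes as a set.

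Srsy, a multicopy gene of the Y long arm transcribed in spermatids, had the largest sex-linked difference. It was at 10.76 and 10.50 on the WT arrays and at 8.74 and 8.03 on the KO arrays. Both KO arrays lay below both WT arrays, with a KO minus WT difference of -2.24 (SE 0.24, unadjusted p 3e-05, adjusted p 0.414 in limma), or 4.73-fold. The array has 19 clusters for this gene, all 19 of them lower in KO without overlap, with differences from -2.44 to -0.66 and a median of -1.72. The copies are near identical and several clusters have identical values, so they are no independent measurements. In round spermatids Srsy was at 11.87 in WT and 9.82 in KO.

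H2ab1, which encodes a short histone H2A variant of late spermatogenic cells, was at 9.65 and 9.81 in WT and 8.71 and 8.53 in KO. The arrays of each genotype agreed closely and the difference was -1.11 (SE 0.16, adjusted p 0.414 in limma), the same on its 2 clusters, which have equal values. Samt3, a testis membrane protein gene of a small X-linked family, was at 6.99 and 7.28 in WT and 6.18 and 5.68 in KO. Its difference was -1.21 (SE 0.21, adjusted p 0.565 in limma). Samt4 of the same family was at 6.12 and 6.07 in WT against 5.55 and 5.28 in KO, lower by a smaller step of -0.68. Both KO levels of Samt4, and KO array 2 of Samt3, lay under the log2 6 of the filter. The size of these differences may be limited by the lowest levels the array gives.

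Ppp4r3c-ps, annotated as a pseudogene of a phosphatase regulatory subunit, was at 7.49 and 7.87 in WT and 6.23 and 5.66 in KO, a difference of -1.73 (SE 0.23, adjusted p 0.414 in limma). 4930595M18Rik was at 6.92 and 6.88 in WT and 5.80 and 5.98 in KO, a difference of -1.01 with the KO arrays close to each other. Both its KO values, and KO array 2 of Ppp4r3c-ps, lay under the log2 6 of the filter. The closeness and the size of these differences may therefore be limited by the lowest levels the array gives. Gm614 was at 8.54 and 8.88 in WT against 7.81 and 7.13 in KO. KO array 1 lay above KO array 2 in all 8 X-linked genes of the 2-fold set except 4930595M18Rik, and the KO arrays were farthest apart in 4933400A11Rik and 4921511C20Rik. In 4933400A11Rik KO array 1 was at 9.03, against 9.13 and 9.87 in WT and 7.03 on KO array 2, in 4921511C20Rik at 8.59 against 9.34 and 9.08 in WT and 7.34 on KO array 2, and in Gm732 at 8.20 against 8.64 and 9.0 in WT and 7.35 on KO array 2.

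**Figure D1:**
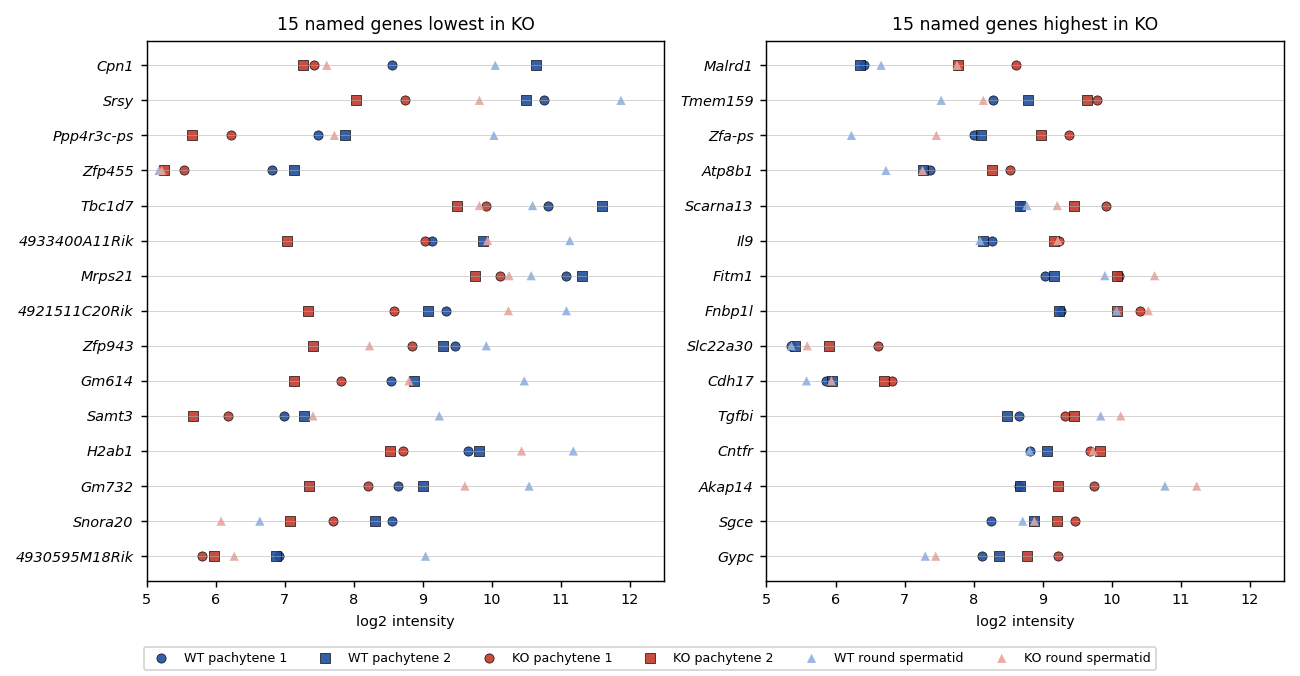
Log2 intensity (horizontal axis) of the 15 named genes lowest (left) and the 15 highest (right) in KO on each of the 6 arrays (chemoreceptor genes and autosomal clone or predicted names, such as A530064D06Rik and 1700049J03Rik, are left out), blue for WT and red for KO, with the lone round spermatid arrays as pale triangles. KO and WT pachytene arrays do not overlap for any gene drawn, a condition of the choice, and Cpn1 has the WT arrays farthest apart, at 8.55 and 10.64.

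Averaged over both genotypes, all 8 X-linked genes of the 2-fold set had a round spermatid level at least 2-fold above the pachytene level, a property termed spermatid-high here. That measure weights KO and WT arrays equally, but the KO arrays varied more (below), and a low KO level lowers the pachytene mean, so the class is not fully independent of the KO minus WT difference. Of the 158 X-linked spermatid-high genes, 26 were lower in KO at an unadjusted p under 0.05 (16.5%, against 1.39% of all tested genes) and 8 were higher (5.06%, against 1.01%). Among the other 466 X-linked genes 2 were lower and 2 higher (0.429% each). Among 1116 autosomal spermatid-high genes 13 were lower (1.16%) and 24 higher (2.15%), and among 748 autosomal genes at least 2-fold higher in pachytene spermatocytes 37 were lower (4.95%) and 6 higher (0.802%). The last class includes H1f6 and Bard1, given below, and Aym1, a nuclear protein gene of meiotic cells chosen after its values were seen, at 11.33 and 11.33 in WT and 10.50 and 10.55 in KO. No gene of these classes passed the adjusted threshold. Spermatid transcripts were also measured on the pachytene arrays (Prm1 and Tnp1, above). Their part in the counts of spermatid-high genes was not tested, and these arrays cannot tell it from a difference within pachytene spermatocytes.

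The median difference of the 158 X-linked spermatid-high genes was -0.05, beside 0.03 for all tested genes. It was 0.20 on KO array 1 and -0.32 on KO array 2, each against the WT mean, so the class as a whole moved in opposite directions on the KO arrays. The autosomal spermatid-high genes parted in the same way, with medians of 0.26 and -0.18. The counts moved with the array left out, as did those over all tested genes. Without KO array 1, 71 of the class were lower and 2 higher at an unadjusted p under 0.05, beside 1258 lower (7.02%) and 2501 higher of all tested genes. Without KO array 2, 23 were lower and 55 higher, beside 4.5% and 5.77%. Without WT array 1, 18 were lower and 2 higher (1.01% and 0.301% of all), and without WT array 2, 14 and 1 (0.413% and 0.19%). The count of genes in the class at least 2-fold lower without overlap was 8, and it became 15 without KO array 1 and 4 without KO array 2. These fits with 1 array in an arm assume that the lone array varies like the pair of the other genotype. The condition of no overlap is also easier to meet there.

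**Figure D2:**
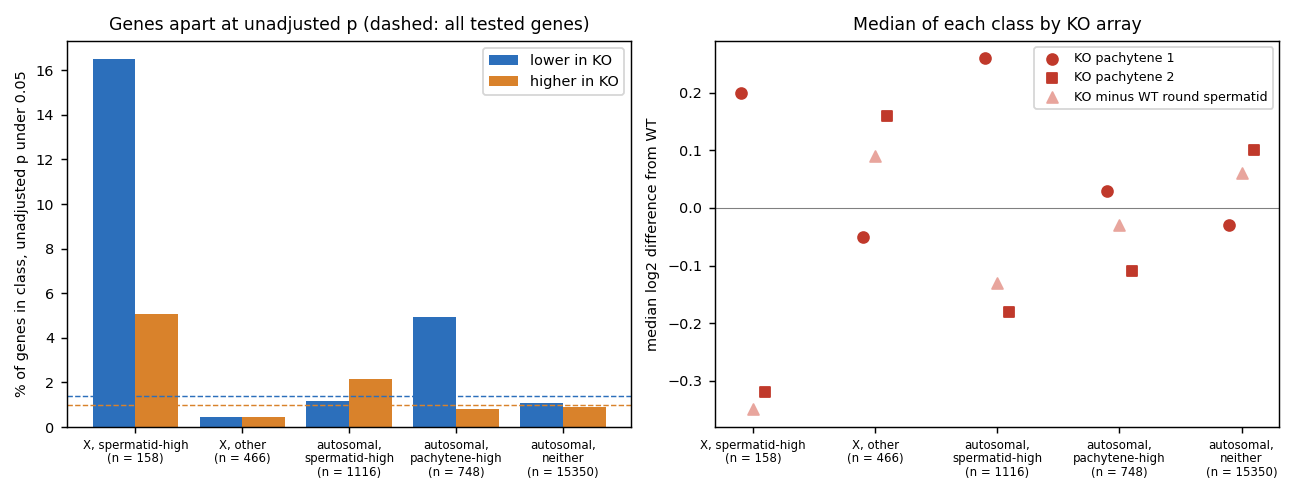
Left, the share of genes (percent) in each of 5 classes that were lower (blue) or higher (orange) in KO at an unadjusted p under 0.05, with dashed lines at 1.39% and 1.01% for all tested genes. Right, the class medians of the log2 difference from WT for KO pachytene arrays 1 and 2 and for the round spermatid pair; X-linked spermatid-high genes have the largest share lower, 16.5%, with medians of 0.20 and -0.32 on the KO arrays.

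Among the 26 lower genes were several with known products. Taf9b, a subunit of the general transcription factor TFIID, was at 11.36 and 11.48 in WT and 10.79 and 10.18 in KO, a difference of -0.93. Ube2dnl2, which resembles ubiquitin-conjugating enzymes, was at 8.82 and 9.19 against 8.24 and 7.96, and Prame at 8.83 and 8.77 against 8.11 and 7.73. Ube2a, a ubiquitin-conjugating enzyme that acts on histone H2B, was at 8.23 and 8.20 in WT and 8.00 and 7.48 in KO, a difference of -0.48 (adjusted p 1.0 in limma). Among the 8 higher genes, Akap14, an anchor of protein kinase A, was at 8.65 and 8.67 in WT and 9.74 and 9.22 in KO, a difference of 0.81 (SE 0.20, adjusted p 1.0 in limma). Cstf2, a factor of mRNA 3' end formation, was at 8.82 and 8.71 against 9.44 and 9.17. Taf9b, Prame and Samt4 were chosen after their values were seen. RefSeq windows were found for 19 of the 26 lower genes, with 0 to 22 CG dinucleotides and a median of 5. They were found for 136 of the 158 X-linked spermatid-high genes, which include the 26, with a median of 9. Over the 526 tested X-linked genes with a window the median was 11. Whether CG counts go with the KO minus WT difference was not tested.

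Over the whole X chromosome, the median difference was 0.06 for 624 genes, beside 0.03 for 17214 autosomal genes, a gap of 0.0287 that was 0.0037 without KO array 2. Of 27 tested genes on a list of X-linked spermatid-expressed genes, 0 passed the adjusted threshold, 7 were lower and 2 higher at an unadjusted p under 0.05 (1.39% and 1.01% of all tested genes), and the median was -0.14. Samt3, Ube2dnl2 and Fndc3c1 led the lower side and Akap14 the higher side. Fndc3c1 was at 7.03 and 7.22 in WT and 6.04 and 6.57 in KO. Of 53 X-linked genes that most tissues use, 13 were higher and 3 lower without overlap (backgrounds 14.9% and 10.2%), with a median of 0.08, from 0.19 on KO array 1 and -0.01 on KO array 2. Zfx, a transcription factor, was at 7.99 and 7.65 against 8.23 and 8.15, and Pgk1, a glycolytic enzyme, at 7.69 and 7.37 against 7.92 and 7.73. The 16 X-linked genes of spermatogonia had a median of 0.13, from 0.38 on KO array 1 and -0.11 on KO array 2. Of 9 Y-linked genes, 2 were lower and 0 higher without overlap. Zfy1, a zinc finger gene of the Y chromosome, was at 7.31 and 7.67 in WT and 7.45 and 6.12 in KO, so that its genotypes overlapped.

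The largest autosomal difference was that of Cpn1, the catalytic subunit of carboxypeptidase N. It was at 8.55 and 10.64 in WT and 7.43 and 7.27 in KO, a difference of -2.25 (SE 0.57, adjusted p 1.0 in limma) beside 2.09 between the WT arrays themselves. In round spermatids it was at 10.05 in WT and 7.61 in KO. Tbc1d7, a subunit of the TSC complex that restrains mTORC1, was at 10.81 and 11.60 in WT and 9.92 and 9.49 in KO, a difference of -1.50 (SE 0.28, adjusted p 0.637 in limma). Mrps21, a protein of the mitochondrial ribosome, was at 11.08 and 11.30 against 10.12 and 9.76, a difference of -1.25 (SE 0.18, adjusted p 0.414 in limma). Both KO arrays lay below both WT arrays by more than either pair spread for Mrps21.

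Zinc finger genes were among the lower autosomal genes, but 293 numbered Zfp genes had a median of -0.01, with 6 lower and 3 higher at an unadjusted p under 0.05 (2.05% and 1.02%, beside 1.39% and 1.01% of all tested genes). Zfp455 was at 6.81 and 7.13 in WT and 5.54 and 5.25 in KO, a difference of -1.57 (SE 0.18, adjusted p 0.414 in limma). Both KO arrays lay under the log2 6 of the filter, which the gene passed only through the WT pachytene arrays, so the size of this difference is limited by the lowest levels the array gives. Zfp943 was at 9.46 and 9.29 in WT and 8.85 and 7.41 in KO. Zfp942, whose promoter window overlaps that of Zfp943, was at 10.15 and 10.47 against 9.77 and 8.85. Both genes of this pair were lower on each KO array, with the lower value on KO array 2, and differed by -1.24 and -1.0. Zfp600 was higher in KO, at 6.10 and 6.01 in WT and 7.12 and 6.28 in KO. Its WT levels lay just above the log2 6 of the filter, so the size of this difference may also be limited.

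Among the 15 highest named genes, which leave out chemoreceptors and autosomal clone names, only Akap14 lies on the X chromosome. Malrd1, a gene known from bile acid regulation, was at 6.41 and 6.35 in WT and 8.62 and 7.78 in KO, a difference of 1.82 (SE 0.26, adjusted p 0.414 in limma). Its second cluster was at 6.34 and 6.40 in WT and 6.28 and 6.41 in KO, a difference of -0.03, so the clusters of this gene disagree. The second cluster, and the first in WT, lay just above the log2 6 of the filter. The second cluster may therefore detect little, and the size of the difference on the first may be limited by the lowest levels the array gives. Zfa-ps, an autosomal relative of the X-linked gene Zfx, was at 8.01 and 8.10 in WT and 9.38 and 8.97 in KO, a difference of 1.13. In round spermatids it was at 6.23 in WT and 7.46 in KO.

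Tmem159, a lipid droplet assembly factor, was at 8.28 and 8.79 in WT and 9.79 and 9.64 in KO, a difference of 1.18 (SE 0.20, adjusted p 0.565 in limma). Fitm1, which partitions fat into droplets, was at 9.03 and 9.17 against 10.11 and 10.08, and Atp8b1, a phospholipid flippase, at 7.37 and 7.26 against 8.53 and 8.27. Il9, a cytokine, was at 8.26 and 8.13 in WT and 9.24 and 9.16 in KO, and Fnbp1l, a membrane-bending adaptor of actin assembly, at 9.27 and 9.23 against 10.41 and 10.08. Cntfr, a cytokine receptor subunit, was at 8.82 and 9.06 against 9.68 and 9.83. In all of these, KO and WT were apart by more than the arrays of one genotype. The remaining members, Slc22a30, Cdh17, Tgfbi, Sgce and Gypc, differed by 0.75 to 0.87. Slc22a30 was at 5.36 and 5.42 in WT and 6.61 and 5.90 in KO, and Cdh17 at 5.86 and 5.95 against 6.82 and 6.70. Both passed the log2 6 filter only through KO pachytene arrays, the group in which they are high. Their WT levels lay under it, so the size of these differences may be limited by the lowest levels the array gives. A530064D06Rik, chosen after its values were seen, had the largest difference in this direction, 2.09 (SE 0.41), at 7.99 and 6.58 in WT and 9.59 and 9.17 in KO.

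Small nucleolar and Cajal body RNAs guide the chemical modification of ribosomal and spliceosomal RNA, and most are cut from introns of host genes. Of 45 tested, 38 were below WT in KO, beside 40.1% of all tested genes, and the median difference was -0.23. Arrays did not overlap for 20 lower and 1 higher (backgrounds 10.2% and 14.9%). At an unadjusted p under 0.05 in limma there were 10 lower (22.2%) and 1 higher (2.22%), beside 1.39% and 1.01% of all tested genes. None passed the adjusted threshold. Medians were -0.17 on KO array 1 and -0.23 on KO array 2. Of the 24 C/D box RNAs, which guide methylation, 23 were below WT with a median of -0.30, and of the 18 H/ACA box RNAs, which guide pseudouridylation, 13 were, with a median of -0.04.

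Snord57 was at 11.40 and 11.20 in WT and 10.46 and 10.29 in KO, a difference of -0.92 (SE 0.16, adjusted p 0.565 in limma). Snora20 was at 8.56 and 8.31 against 7.70 and 7.08, a difference of -1.04 (SE 0.23, adjusted p 0.982 in limma). Snord73b was at 8.82 and 9.73 against 8.78 and 7.92, with the WT arrays nearly as far apart as the genotypes. Scarna13 went the other way, at 8.68 and 8.67 in WT and 9.91 and 9.46 in KO, a difference of 1.01.

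For 26 of these RNAs a single tested host gene contained them in the RefSeq order, 22 hosts in all. The small RNAs had a median difference of -0.26 and their hosts one of 0.04, and 23 of 26 small RNAs lay below their host. Snord57 differed by -0.92 and its host Nop56, a protein of the same particles, by 0.13. Snora20 differed by -1.04 and its host Tcp1, a chaperonin subunit, by 0.04. Snord37, at 7.33 and 7.38 in WT and 6.93 and 6.13 in KO, differed by -0.82 and its host Eef2, a translation elongation factor, by 0.01. Snora23, at 8.78 and 8.77 against 8.45 and 7.5, differed by -0.80 and its host Ipo7, an importin, by 0.23. In these 4 pairs the host lay at or above its WT level and the small RNA below it. In round spermatids 33 of the 45 lay below WT (40.9% of all tested genes did), with a median of -0.10. The median over 141 microRNA genes was 0.03, from -0.21 on KO array 1 and 0.25 on KO array 2. Of 611 long noncoding RNA genes 25 were lower (4.09%) and 5 higher (0.818%) at an unadjusted p under 0.05, beside 1.39% and 1.01% of all tested genes. Among the lower ones Malat1, a nuclear RNA chosen after its values were seen, was at 8.68 and 9.23 in WT and 8.44 and 7.83 in KO.

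**Figure D3:**
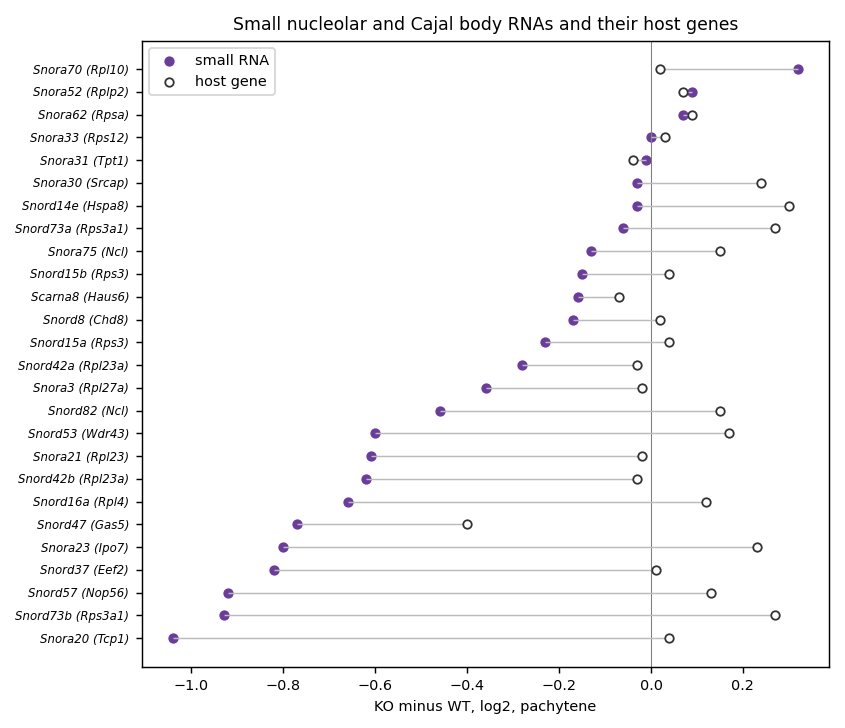
KO minus WT log2 difference in pachytene spermatocytes (horizontal axis) for 26 small RNAs (filled) and the host gene of each (open, named in brackets), joined by a line. The small RNAs reach down to -1.04 while the hosts lie between -0.40 and 0.30.

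Of 30 tested members of the enzyme's own pathway, which comprises histone ubiquitin signalling at DNA breaks, 4 were higher and 4 lower without overlap (14.9% and 10.2% of all genes), with a median of -0.03. Bard1, the partner of BRCA1, was at 9.34 and 9.93 in WT and 9.04 and 8.66 in KO, a difference of -0.78 (SE 0.23, adjusted p 1.0 in limma). Rnf111, a SUMO-targeted ubiquitin ligase, was at 9.74 and 9.82 against 9.64 and 9.19, and L3mbtl2, a chromatin reader, at 10.92 and 10.62 against 10.99 and 11.10. Of 23 genes of ATR, ATM and the checkpoint clamp, 4 were higher and 4 lower without overlap, led by the ATR activator Etaa1 at 7.56 and 8.01 against 7.56 and 7.08. Of 20 Fanconi anaemia genes 2 were higher and 2 lower. None of these lists had a member past the adjusted threshold.

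Of 23 genes of the synaptonemal complex, axis and cohesin, 2 were higher and 0 lower without overlap (14.9% and 10.2% of all tested genes, here and for the lists that follow), and the median was 0.01, from 0.20 on KO array 1 and -0.14 on KO array 2. Sun1, which tethers telomeres to the nuclear envelope, was at 10.55 and 10.51 in WT and 10.84 and 10.73 in KO. Of 28 recombination genes 5 were higher and 1 lower without overlap, the lower one Msh5, a crossover factor, at 8.53 and 8.52 against 8.16 and 8.26. Of 26 regulators of the meiotic divisions 0 were higher and 4 lower, among them the CDK1 inhibitory kinase Pkmyt1 at 11.28 and 11.06 against 10.89 and 10.98. Of 27 piRNA pathway genes 5 were higher and 3 lower, with Piwil2 at 11.25 and 11.03 in WT and 11.60 and 11.43 in KO.

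Of 16 histone variants tested, 3 were higher and 6 lower without overlap, beside 14.9% and 10.2% of all tested genes, with a median of -0.01. H1f6, the testis-specific linker histone H1t made in pachytene spermatocytes, was at 12.56 and 12.34 in WT and 11.88 and 11.40 in KO, a difference of -0.81 (SE 0.20, adjusted p 1.0 in limma). H2al3 was at 8.54 and 8.45 against 8.25 and 8.00, and H2ab1 is given above. H2al2a, a variant that loads onto chromatin with transition proteins, was higher, at 9.66 and 9.44 in WT and a mean of 10.12 in KO with KO array 1 at 10.24, a difference of 0.57 (SE 0.17, adjusted p 1.0 in limma). Of 21 other histone ubiquitin enzymes 4 were higher and 1 lower without overlap, with the deubiquitinase Usp26 at 7.24 and 7.51 against 7.89 and 7.63. Of 24 writers and readers of H4 acetylation 4 were higher and 2 lower, with Epc2, a subunit of the NuA4 complex, at 9.97 and 10.07 against 9.90 and 9.53.

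Of 62 spermatid differentiation genes, 6 were higher and 5 lower without overlap, beside 14.9% and 10.2% of all tested genes, with a median of 0.05, from 0.21 on KO array 1 and -0.09 on KO array 2. Tssk2, a kinase of spermatids, was at 10.88 and 10.56 in WT and 11.34 and 10.99 in KO. Of 18 genes listed as autosomal retrogenes of X-linked parents, 3 were higher and 0 lower at an unadjusted p under 0.05, beside 1.01% and 1.39%. These were Zfa-ps, Pgk2, the testis form of a glycolytic kinase, at 11.82 and 12.01 against 12.36 and 12.27, and Hnrnph2, at 7.84 and 7.92 against 8.54 and 8.13. Hnrnph2 is itself X-linked and was listed in error, as was the Y-linked Uba1y.

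Of 28 p53 targets and apoptosis genes, 22 were above WT (59.9% of all tested genes were), 7 higher and 0 lower without overlap (14.9% and 10.2% of all, here and for the lists that follow), with a median of 0.08. Sesn2, a stress-induced p53 target, was at 8.86 and 8.63 in WT and 9.10 and 8.88 in KO, and Mdm2, the p53 ubiquitin ligase, at 11.57 and 11.35 against 11.69 and 11.62. Of 26 spermatogonia markers 23 were above WT, 12 higher and 0 lower without overlap, with a median of 0.13. The part of these marker levels in the other results was not tested. Of 59 cytosolic ribosomal protein genes 4 were higher and 7 lower without overlap, with a median of 0.01, the farthest being Rps9 at 10.58 and 10.15 against 11.02 and 10.97. Of 80 genes of oxidative phosphorylation 14 were higher and 11 lower, with a median of -0.02. Cox6b1, a subunit of cytochrome c oxidase, was at 9.06 and 9.20 in WT and 9.64 and 9.76 in KO, while Ndufb10, a subunit of complex I, was at 9.13 and 9.20 against 8.81 and 8.77.

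**Figure D4:**
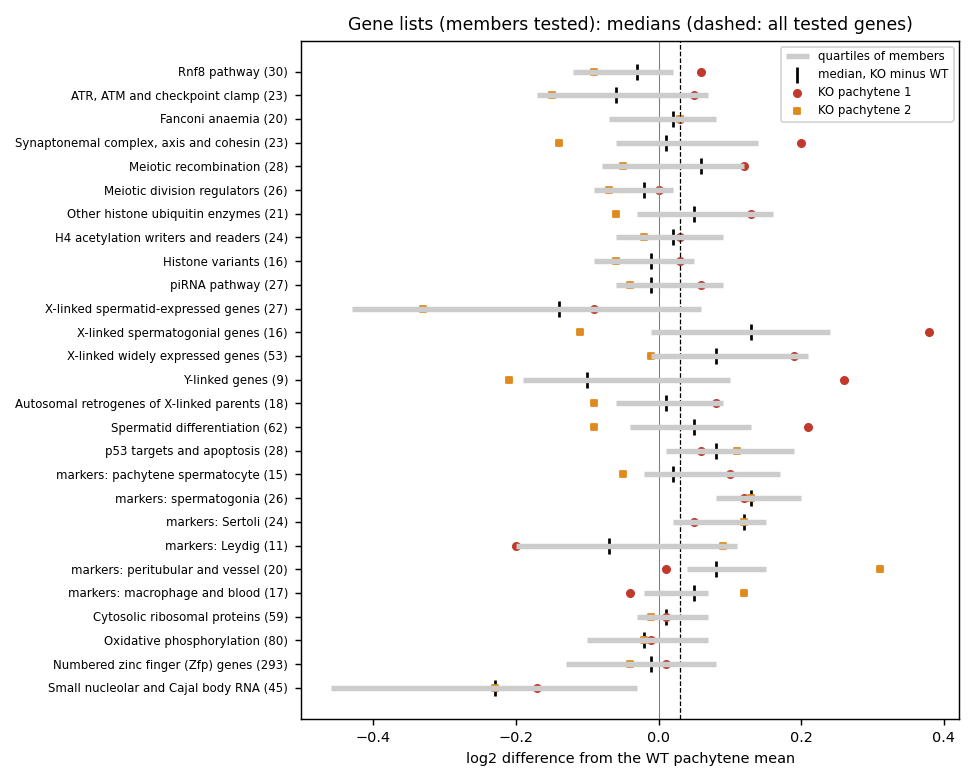
Median log2 difference from the WT pachytene mean (horizontal axis) of each gene list, with the number of members tested in brackets, the quartiles of the KO minus WT difference as grey bars, and the medians on KO arrays 1 and 2 as points. The small nucleolar and Cajal body RNAs have medians of -0.17 and -0.23 on the KO arrays, while the X-linked spermatogonial genes stand at 0.38 and -0.11.

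Around Rnf8 on chromosome 17, Btbd9 and Glo1 differed and the other 8 of the 10 nearest tested genes lay between -0.08 and 0.21. Btbd9, the fourth tested gene on one side, was at 9.78 and 9.92 in WT and 10.55 and 10.51 in KO, a difference of 0.68 (SE 0.15, adjusted p 0.982 in limma). Glo1, the adjacent glyoxalase gene, was at 9.40 and 9.42 against 9.79 and 9.90, a difference of 0.43 (SE 0.15, adjusted p 1.0 in limma). Both KO arrays lay above both WT arrays by several times the distance within a genotype. Within 50 tested genes on either side, 2 of 100 were higher and 0 lower at an unadjusted p under 0.05. Over the chromosome, 15 of 849 were higher (1.77%) and 20 lower (2.36%), beside 1.01% and 1.39% of all tested genes. The 4 genes at least 2-fold lower there were 1700049J03Rik, Snora20, Zfp942 and Zfp943, and 1 was higher, A530064D06Rik. 1700049J03Rik, chosen after its values were seen, was at 8.52 and 9.0 in WT and 7.53 and 7.67 in KO, a difference of -1.16.

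**Figure D5:**
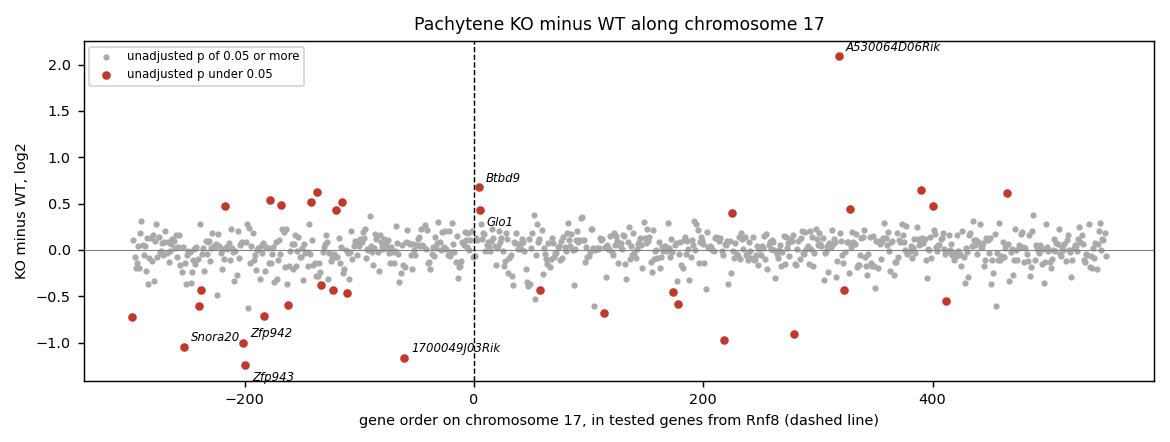
KO minus WT log2 difference in pachytene spermatocytes (vertical axis) of 849 tested genes of chromosome 17 by gene order from Rnf8 (dashed line), with genes at an unadjusted p under 0.05 in red. Btbd9 at 0.68 and Glo1 at 0.43 stand beside Rnf8, and the Zfp942 and Zfp943 pair at -1.0 and -1.24 lies farther off.

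The KO arrays differed from each other more than the WT arrays did. The SD of the difference over genes was 0.36 between the KO arrays and 0.20 between the WT arrays. At least 2-fold apart were 183 genes between the KO arrays (1.02%) and 29 between the WT arrays (0.162%). Of the 183, 165 were higher on KO array 1 (0.921%) and 18 on KO array 2 (0.1%). The 165 include 24 of the 158 X-linked and 83 of the 1116 autosomal spermatid-high genes. Cylc1, an X-linked sperm head protein gene, was at 9.98 and 8.28 on the KO arrays and 9.06 and 9.44 on the WT arrays, and Lrrc69 at 8.59 and 6.95 against 8.06 and 8.29. On the other side Prp2, a salivary proline-rich protein gene, was at 9.34 and 10.99 against 10.14 and 9.84. Many of the genes higher on KO array 1 were thus spermatid-high. Tnp1 was at 11.36 on KO array 1, 10.71 on KO array 2, and 11.11 and 10.74 in WT, and its part in these differences was not tested.

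The lone round spermatid arrays gave a reading of the same genes in other cells, and whether they came from the same males is not stated. Of the 430 genes apart at an unadjusted p under 0.05, 371 (86.3%) had the same sign there, beside 66.1% of all tested genes, and of the 25 genes at least 2-fold apart 24 did. The exception was Zfp455, which was under the log2 6 of the filter on both round spermatid arrays. All 26 lower X-linked spermatid-high genes were also lower in KO round spermatids, with a median of -0.80 in pachytene spermatocytes and -1.24 in round spermatids, where 16 were at least 2-fold lower (0.351% of all tested genes were). The whole class ran low there: its median was -0.35, 26 of the 158 were at least 2-fold lower, and the sign was kept by 82 of the 85 genes below WT in pachytene spermatocytes and by 31 of the 73 above it. There, Samt3 was at 9.24 (WT) and 7.41 (KO), and Ppp4r3c-ps at 10.03 (WT) and 7.72 (KO). Akap14 was higher in both cell types, with round spermatid levels of 10.77 (WT) and 11.23 (KO). Over all tested genes the KO array was at least 2-fold above WT there for 6 (0.0335%), among them A530064D06Rik, Malrd1, Zfa-ps and Il9.

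The difference between cell types was tested with an interaction term, with the lone arrays assumed to vary like the pachytene pairs. It had 0 genes past an adjusted p of 0.05 in limma (0%), with a smallest adjusted p of 1.0, and 130 at an unadjusted p under 0.05 (0.725%). Fndc3c1 differed by -0.82 in pachytene spermatocytes and by -3.09 in round spermatids, where it was at 9.46 in WT and 6.37 in KO (interaction 2.27, SE 0.36, adjusted p 1.0 in limma). Snord57 differed by -0.92 in pachytene spermatocytes and 0.01 in round spermatids, and Btbd9 by 0.68 and -0.01.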

How the data were processed

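RNA of 4 pachytene and 2 round spermatid samples was analysed. The authors deposited linear intensity values, for which the submitters' processing notes name Expression Console 1.1 (Affymetrix) and RMA. No genome build is named there. Each deposited intensity was converted to log2. Of 35556 clusters, 21789 carry 1 symbol, 1621 several and 12146 none in the platform annotation. 21698 single-gene clusters matched RefSeq (GRCm38.p6) by identifier, which gave chromosomes and gene order. Median linear intensity per array was 197.3 to 217.7, and the number of arrays limits the precision. limma 3.58.1 in R 4.3.3 (lmFit, eBayes) compared 2 KO with 2 WT arrays with 2 residual degrees of freedom and Benjamini-Hochberg adjustment. An exact permutation test of 2 against 2 cannot go below a two-sided p of 0.333, so none is given. The script was tested on simulated data. Named genes are Rnf8, the 15 largest differences per direction among genes whose arrays do not overlap at an unadjusted p under 0.05 (leaving unnamed the chemoreceptor genes and autosomal genes with clone or predicted names), up to 4 members of each list, 5 neighbours of Rnf8 on each side, and the 8 largest differences per direction between the KO arrays. Other names are given where a count is small. The members and lists were chosen with earlier results of these data known. Alternatives were other scalings, filters, cluster summaries and priors, a replicate block, and leaving out each array.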

Additional observations from a re-analysis of the deposited data

How the results depend on the processing

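The 74 genes whose difference was recomputed kept their direction, but they were chosen for their differences and their arrays mostly do not overlap, so this is no sign of stability. The fit with a replicate block let 43 genes pass the adjusted p of 0.05 (10 higher), 32 of them among those 74, and 1 gene, Fndc3c1, passed the interaction test. No label pairs the arrays by number, so these counts rest on an assumed pairing. Same-numbered arrays deviated from their group means with a correlation of -0.23. With 2 arrays per genotype that value cannot show whether same-numbered arrays share a preparation. Chosen after seeing the data, the crossed replicate block gave 88 passing genes, with 41 lower and 21 higher X-linked spermatid-high genes at an unadjusted p under 0.05. Under the replicate block 14 of these were higher, after median centring 2, and with no filter 5. The median of the small nucleolar and Cajal body RNAs was -0.32 with a filter at log2 7 and -0.16 with no filter, and between -0.23 and -0.17 with 1 array left out. These counts of X-linked genes and small RNAs were added after seeing the data.

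With 1 array left out, 7 to 26 genes were at least 2-fold higher and 13 to 87 at least 2-fold lower without overlap. That condition is easier to meet with 1 array in an arm. The X minus autosome gap was then 0.0037 to 0.0202. X-linked spermatid-high genes numbered 14 to 71 lower and 1 to 55 higher at an unadjusted p under 0.05, and 4 to 15 at least 2-fold lower, while 108 to 3759 of all tested genes were at that p. Second quantile normalization, median centring, 3 filters, averaged clusters, and a trended and robust prior left 0 genes past the adjusted threshold, with 401 to 533 at an unadjusted p under 0.05. Of 27 list medians, 13 moved by more than the spread between the KO arrays in some setting. With 2 arrays per genotype and changes of 1 on the log2 scale, the simulation gave 0 calls. It took each gene's fitted spread as its true spread in both genotypes, while the real KO arrays spread more than the WT arrays. It therefore does not settle which differences were detectable one by one. Signal near background was kept down to log2 6, the lower quartile of all clusters being 6.15 to 6.28.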
